A study of Mus musculus with 6 samples.

Results

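Of the genes that coat lipid droplets or control the breakdown of the fat they hold, 10 were described in back skin of mice exposed to ultraviolet B light (UVB) and of unexposed mice: Plin1, Plin2, Plin3, Plin4, Plin5, Cidea, Cidec, Lipe, Pnpla2 and G0s2. They were chosen by name, though with earlier results of these data known. Every probe on the array whose gene name is one of these symbols was taken. That gave 11 of 55681 probes, with 2 for Cidec and 1 for each other gene. After UVB, of the 7 genes read well above background on all 6 arrays, Plin2 and Cidea were lower and Lipe was higher, while Plin3, Plin4, Plin5 and Pnpla2 did not pass the test. Of all targets read that well, 9.49% were lower and 7.25% higher. When 1 array was left out in turn, Plin2 passed in all 6 fits, Cidea in 2 and Lipe in 1. Lipe also lost its call under quantile and median scaling. A probe of Cidec and that of G0s2 also tested as lower, but both entered the test only through the control arrays, where they were above background. Plin1 was too dim to be tested.

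All mice were male C57BL/6, aged 6 to 8 weeks, and all had their backs shaved. The UVB group held 3 mice, irradiated on the back under anaesthesia with 180 mJ/cm2 in 3 sessions a week over 2 weeks, beginning 2 days after shaving. The control group held 3 mice that were kept dark and were not irradiated; whether they were anaesthetised, and how long after the last session skin was taken, is not given in the labels. Each mouse's total RNA, labelled with Cy3, was read in 1 colour on its own Agilent mouse array, giving 6 arrays. The label calls the tissue skin without saying how deep it was taken.

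A lipid droplet is a store of triglycerides and sterol esters under a single layer of phospholipid. Perilipins (Plin genes) sit on that layer and limit access of lipases, and the CIDE proteins (Cidea, Cidec) pass lipid between touching droplets so that 1 of them grows. Breakdown starts with adipose triglyceride lipase (Pnpla2), which its cofactor Abhd5 activates and G0s2 inhibits, goes on with hormone-sensitive lipase (Lipe), which cuts diglycerides and sterol esters, and ends with monoglyceride lipase (Mgll). In skin, large stores of this kind lie in the fat cells below the dermis and in sebocytes, the cells of the sebaceous gland, which fill with droplets before they burst to release sebum. In RNA of a mixed tissue such as skin, fewer cells of a type and less RNA per cell cannot be told apart.

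Shown first are the stretches that 2 of the probes read, each 60 bases long. Whether they lie in coding sequence was not looked up. Cidec is shown because its 2 probes gave different values, and this is the probe that did not pass the test. Lipe is shown because it was the 1 member that was higher. The Cidec probe lies at chr6:113378116-113378175 and the Lipe probe at chr7:26165828-26165887, both on the minus strand in the mm9 coordinates of the files. On the strand shown, the Cidec stretch has 1 reading frame without a stop codon and the Lipe stretch has 2.
Cidec probe: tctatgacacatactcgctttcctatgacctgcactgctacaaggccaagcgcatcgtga
Lipe probe: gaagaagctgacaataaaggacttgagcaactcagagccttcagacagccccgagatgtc

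Also shown are the 250 bases before the start of 3 genes, from RefSeq in build GRCm38.p6, all on the minus strand. Plin2 is shown as the member whose fall held in most settings, Cidec as the member with the largest fitted fall, and Lipe as the member that was higher. Their positions are chr4:86670060-86670309 for Plin2, chr6:113434765-113435014 for Cidec and chr7:25395988-25396237 for Lipe. Cidec and Lipe each have a further start, which held none of the motifs searched and is not shown. Capitals mark matches, on either strand, to the motifs searched. The core promoter was searched for the sequence TATAAA of the box of that name and for CCAAT, and for the GC-rich motif GGGCGG bound by Sp1. The E-box was searched as CACGTG, and the site of AP-1, a factor that stress signals activate, as TGACTCA. The half-site of nuclear receptors was searched as AGGTCA. The form that PPAR binds together with RXR, a direct repeat of that half-site with 1 base between, was searched as AGGTCANAGGTCA.
Plin2: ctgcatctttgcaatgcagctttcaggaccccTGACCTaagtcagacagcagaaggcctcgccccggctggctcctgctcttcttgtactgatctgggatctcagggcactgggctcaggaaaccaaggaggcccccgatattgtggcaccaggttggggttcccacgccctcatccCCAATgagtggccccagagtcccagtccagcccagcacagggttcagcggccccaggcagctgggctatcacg
Cidec: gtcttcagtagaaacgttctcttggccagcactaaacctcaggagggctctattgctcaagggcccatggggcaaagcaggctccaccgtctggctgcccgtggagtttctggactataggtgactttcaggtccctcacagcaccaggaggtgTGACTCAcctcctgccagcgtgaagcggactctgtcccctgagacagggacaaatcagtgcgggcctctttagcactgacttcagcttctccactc
Lipe: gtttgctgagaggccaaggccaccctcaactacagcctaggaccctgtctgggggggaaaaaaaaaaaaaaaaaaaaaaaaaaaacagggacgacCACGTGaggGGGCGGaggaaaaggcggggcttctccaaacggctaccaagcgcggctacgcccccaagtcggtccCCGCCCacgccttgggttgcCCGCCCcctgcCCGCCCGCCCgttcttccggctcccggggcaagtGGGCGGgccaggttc

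In these windows, Plin2 held a CCAAT match whose first base lay 73 bases before the start and a half-site match, on the opposite strand, 218 bases before it. Cidec held a TGACTCA match 96 bases before its start. Lipe held a CACGTG match 155 bases before its start and 6 GGGCGG matches, 2 of which share letters. Over 12 windows of 9 members (Cidea is not shown), CCAAT was found in 4, AGGTCA in 2, TGACTCA in 2, CACGTG in 1, GGGCGG in 6, and TATAAA and the direct repeat in none. Among all 32841 windows of this length, CCAAT was in 33.9%, AGGTCA in 14.0%, TGACTCA in 4.46%, CACGTG in 6.02%, GGGCGG in 32.7%, TATAAA in 12.4% and the direct repeat in 0.0335%. A match describes letters in the window and nothing more.

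Levels below are log2 of the scanner's processed signal relative to the 75th percentile of the same array, so that 0 is a fairly bright probe. They are read as differences between arrays for 1 probe at a time. A difference passed where limma's Benjamini-Hochberg adjusted p, over 24352 targets (1 probe per gene or other named target), was under 0.05. Errors beside differences are standard errors of the fit, p-values are two-sided, and 3 mice per group limit the precision of every value. Between 53.9% and 58.6% of spots were well above background on UVB arrays, against 60.1% to 62.4% on control arrays, and no spot was saturated. Probes never well above background on any array lay 0.54 higher on UVB arrays after scaling (median of 18532 probes), which bears on dim members. In the fit over all 24352 targets, 7.01% were lower and 5.55% higher, and 4 of 9 tested members were lower and 1 higher. Since Cidec and G0s2 passed the filter on dim probes through the control arrays alone, that count is a description. With all 6 arrays required, 2 of 7 members were lower, and with 1 common floor for dim signals 3 of 9. With any 1 array left out, 1 to 3 were lower: 1 without UVB mouse 2, 2 without UVB mouse 1, control mouse 2 or control mouse 3, and 3 without UVB mouse 3 or control mouse 1. The median difference of the 7 members above background on all 6 arrays was -1.18, and that of all such targets -0.03.

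Among the coat proteins, Plin2 fell. It encodes the perilipin found on droplets of nearly every cell type, sebocytes included. Its level was 3.62, 3.26 and 3.28 in UVB skin, against 4.55, 4.93 and 5.01 in control skin. Every UVB array lay below every control array, and the spread within each group was small beside the gap. The means were 3.39 ± 0.20 in UVB skin and 4.83 ± 0.25 in control skin (SD, n = 3 each). The difference was -1.44 ± 0.18, or 2.72-fold lower (limma, adjusted p = 0.00751, 95% interval -1.87 to -1.01). It passed with any 1 array left out, with an adjusted p of 0.0196 to 0.0386. The unscaled signals did not overlap either, at 4320, 3020 and 2930 on UVB arrays and 8500, 15800 and 15600 on control arrays. The probe lies at chr4:86302847-86302906 on the minus strand (mm9).

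Plin3, a perilipin that moves from the cytosol onto young droplets, differed little. Its level was 4.23, 4.45 and 4.35 in UVB skin, against 4.74, 4.56 and 4.58 in control skin. The groups did not overlap, but the difference of -0.28 ± 0.12 did not pass (limma, adjusted p = 0.175, 95% interval -0.58 to 0.01). That interval leaves out a fall as large as that of Plin2. The probe lies at chr17:56418429-56418488 on the minus strand (mm9).

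Plin4 and Plin5 had lower levels in UVB skin without passing the test. Plin4, which coats newly made droplets in fat cells, stood at 1.14, 0.18 and 0.69 in UVB skin, against 1.26, 2.11 and 2.89 in control skin. Control mouse 1 lay close to UVB mouse 1, so the groups were apart by little. The difference was -1.42 ± 0.45 (limma, adjusted p = 0.0884, 95% interval -2.50 to -0.34), and with normexp background correction it was -1.37 with an adjusted p of 0.041. Plin5, the perilipin of tissues that burn fat, which ties droplets to mitochondria, stood at -2.52, -3.63 and -3.43 in UVB skin, against -2.36, -1.88 and -1.01 in control skin. Again control mouse 1 was the closest to the UVB mice, and the groups did not overlap. The difference was -1.44 ± 0.43 (limma, adjusted p = 0.0756, 95% interval -2.47 to -0.41). It passed with a trended, robust variance (adjusted p = 0.0467), and it shrank to -0.60 with normexp. Both point estimates were near that of Plin2, with larger standard errors. The probes lie at chr17:56240055-56240114 (Plin4) and chr17:56251025-56251084 (Plin5), on the minus strand (mm9).

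Plin1, the perilipin that guards the large droplet of fat cells, stood well above background on none of the UVB arrays and on 1 of the 3 control arrays, that of control mouse 3. Its level was -4.95, -5.68 and -4.85 in UVB skin, against -5.55, -5.42 and -4.48 in control skin, and the groups overlapped. With dim probes kept in the fit, the difference was -0.01 ± 0.36 (limma, adjusted p = 0.991). Its probe lies at chr7:86866112-86866171 on the minus strand (mm9).

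**Figure D1:**
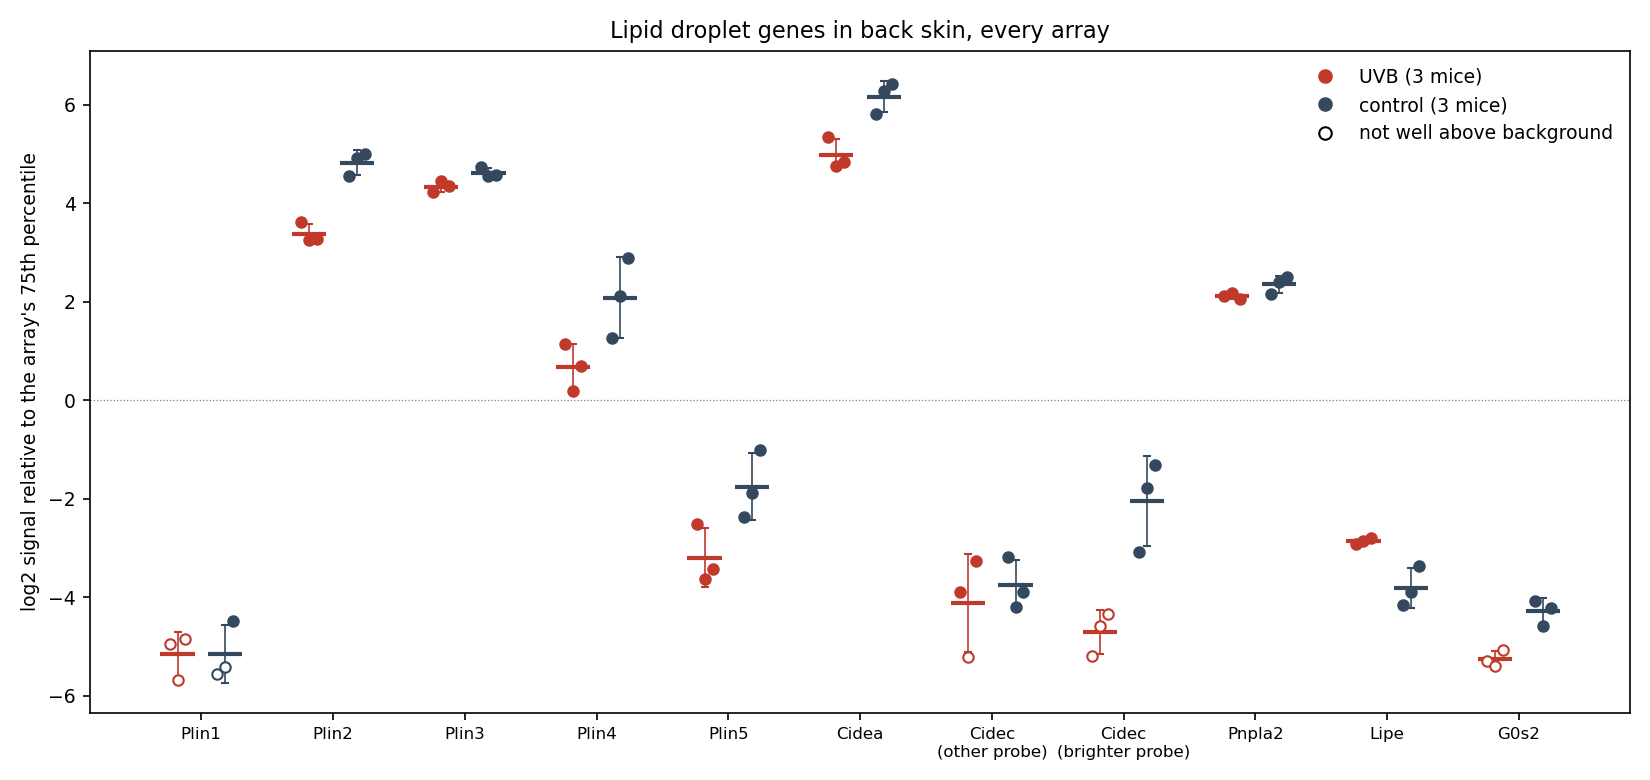
Level of each member on each array, as log2 signal relative to the array's 75th percentile, with UVB mice in red left of control mice in dark blue; bars are means with SD (n = 3), and open points were not well above background. Plin2, Plin3, Plin4, Plin5, Cidea, G0s2 and 1 Cidec probe are lower on every UVB array than on every control array. Plin3 differs little, and G0s2 and that Cidec probe were not well above background in UVB skin. Plin1, Pnpla2 and the other Cidec probe overlap, and Lipe alone is higher on every UVB array.

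Of the CIDE genes, Cidea was lower in UVB skin, and the 2 probes of Cidec gave different answers. Cidea, known in mice from brown fat and from sebocytes, where it helps droplets grow, had levels of 5.35, 4.77 and 4.85 in UVB skin, against 5.81, 6.28 and 6.42 in control skin. The groups did not overlap, with UVB mouse 1 and control mouse 1 the closest pair. The means were 4.99 ± 0.31 in UVB skin and 6.17 ± 0.32 in control skin (SD, n = 3 each). The difference was -1.18 ± 0.23, or 2.27-fold lower (limma, adjusted p = 0.0254, 95% interval -1.73 to -0.63). The difference stayed between -1.36 and -1.06 when any 1 array was left out. The call was lost without UVB mouse 2 (adjusted p = 0.0679), UVB mouse 3 (0.0667), control mouse 2 (0.0971) or control mouse 3 (0.071).

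Cidec, the partner gene best known from white fat cells, had 2 probes. The one with the higher mean over all 6 arrays stood for the gene, and it owes that mean to the control arrays: on UVB arrays 1 and 3 the other probe had the higher signal. It had levels of -5.20, -4.58 and -4.34 in UVB skin, against -3.07, -1.77 and -1.31 in control skin. It was well above background on all control arrays and on no UVB array, so the UVB level has only an upper bound. The means were -4.70 ± 0.44 in UVB skin and -2.05 ± 0.91 in control skin (SD, n = 3 each). The fitted difference was -2.66 ± 0.48 (limma, adjusted p = 0.0209). With the UVB side set to the lowest signal well above background or the probe's own, whichever was higher, this was at least 5.04-fold lower. That bound depends on the scanner's own background subtraction and on a floor set for each array: with 1 common floor the difference was -2.23, with normexp -0.89 and with both probes averaged -1.51, and each is smaller than the bound, though all 3 passed. The call was lost without UVB mouse 1 (adjusted p = 0.0725), UVB mouse 2 (0.0563) or control mouse 2 (0.0804). This probe lies at chr6:113374630-113374689 on the minus strand (mm9).

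The other Cidec probe, whose sequence is given above, did not show this fall. Its level was -3.89, -5.21 and -3.26 in UVB skin, against -3.18, -4.19 and -3.89 in control skin, and the groups overlapped. It was well above background on 2 UVB arrays and on all 3 control arrays. The difference was -0.36 ± 0.52 (limma over 33759 probes, adjusted p = 0.681, 95% interval -1.62 to 0.89), and it was 0.18 without UVB mouse 2. Of the 10 member probes tested this way, 4 were lower, those of Cidec and G0s2 among them, and 1 higher, where 6.10% of all probes were lower and 5.08% higher. The difference between the 2 Cidec probes was itself not tested.

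**Figure D2:**
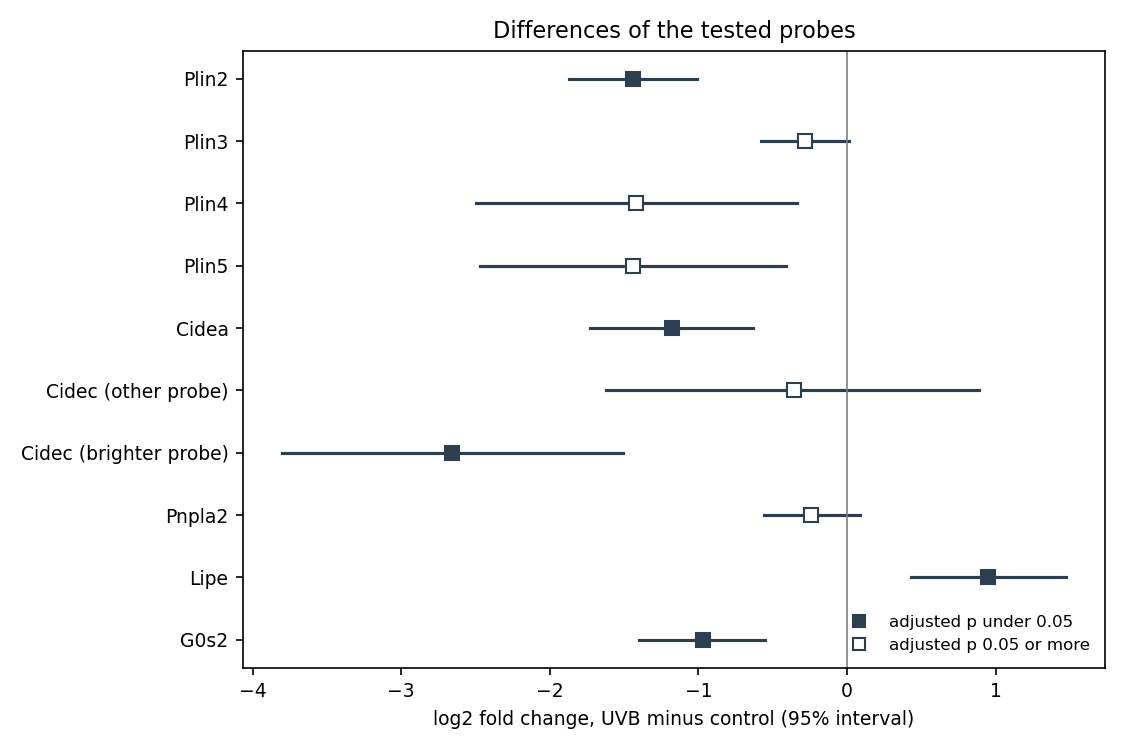
Difference of each tested member probe, UVB minus control, on the log2 scale, with 95% intervals of the limma fit; filled squares have an adjusted p under 0.05. Intervals of Plin2, Plin4, Plin5, Cidea, G0s2 and the Cidec probe with the higher mean over all 6 arrays lie left of 0. That of Lipe lies right of 0, and those of Plin3, Pnpla2 and the other Cidec probe include 0. The intervals of Plin4 and Plin5 are wide, and their squares are open.

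Of the lipases, Pnpla2 showed no difference that passed and Lipe was higher. Pnpla2, which removes the first fatty acid of a triglyceride, had levels of 2.12, 2.19 and 2.05 in UVB skin, against 2.16, 2.40 and 2.51 in control skin. UVB mouse 2 lay above control mouse 1, so the groups overlapped. The difference was -0.24 ± 0.14 (limma, adjusted p = 0.281), and its 95% interval, -0.56 to 0.09, leaves out a change of the size seen for Plin2 in either direction. The probe lies at chr7:148645928-148645987 on the plus strand (mm9).

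Lipe had levels of -2.92, -2.86 and -2.79 in UVB skin, against -4.16, -3.90 and -3.36 in control skin. The UVB arrays lay close together and above all control arrays. The means were -2.86 ± 0.06 in UVB skin and -3.80 ± 0.41 in control skin (SD, n = 3 each). The difference was 0.95 ± 0.22, or 1.93-fold higher (limma, adjusted p = 0.0391, 95% interval 0.43 to 1.47). It rests on the scaling: the unscaled signals were 46.5, 43.2 and 43.6 on UVB arrays and 20.3, 34.9 and 47.2 on control arrays, and these overlapped. The call was lost under quantile scaling (0.84, adjusted p = 0.0746), under median scaling (0.84, 0.0701), in the deposited table (0.83, 0.0754) and with dim probes kept in (0.95, 0.063). Of the 6 fits that leave out 1 array it passed only without control mouse 3 (1.17, 0.0174), and the other 5 gave 0.77 to 0.98 with adjusted p-values of 0.0769 to 0.132. The probe was dim, where UVB arrays stood 0.54 higher for probes at background. The part of that offset in the difference was not tested.

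G0s2, the inhibitor of Pnpla2, lay at the edge of detection. Its level was -5.30, -5.40 and -5.08 in UVB skin, against -4.07, -4.58 and -4.21 in control skin. It was well above background on all control arrays and on no UVB array, and the groups did not overlap. The fitted difference was -0.97 ± 0.18 (limma, adjusted p = 0.0213), and no size is given as a bound, since the direction depends on the background treatment: with normexp the difference was 0.14 (adjusted p = 0.484), and with 1 common floor for dim signals it was -0.09 (0.511). With 1 array left out it passed only without UVB mouse 3 (0.0338) or control mouse 2 (0.0364), and the other 4 adjusted p-values were 0.0565 to 0.0748. The probe lies at chr1:195098925-195098984 on the minus strand (mm9).

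Of the 7 members above background on all 6 arrays, 5 had every UVB array below every control array, where 24.0% of such targets did, and 1 had every UVB array above, where 16.6% did. With Cidec and G0s2 added, which were above background in controls alone, these were 7 and 1 of 9, where 22.6% and 15.9% of all tested targets were below and above. Control mouse 1 was the control nearest to the UVB mice for Plin2, Plin4, Plin5, Cidea and the Cidec probe that fell. Protein-coding targets outside the members, with a value on all 6 arrays, were compared with Plin2 in pattern. The most alike were Hilpda (Pearson's r = 0.9987), Cers6 (0.9961) and Synpo (0.9959). These values describe 6 arrays that share the split into UVB and control. Of these, Synpo was also lower, with a difference of -1.36 ± 0.20 (limma, adjusted p = 0.0118, and 0.0535 without control mouse 2), though the mean of its probes gave -0.59 (0.074), and Cers6 did not pass, with -0.40 ± 0.11 (0.0693). No such match is given for Plin1, whose probe was at background.

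The partners of the lipases were read from a list of 17 genes, all tested, of which 4 were lower and 1 higher, with a median of -0.16. Of all tested targets, 7.01% were lower and 5.55% higher, for comparison with this list and those below. With 1 array left out, 1 to 3 of the partners were lower and 1 was higher. Ces1d, a carboxylesterase that cuts triglycerides in fat cells, had levels of -0.51, -0.79 and -0.22 in UVB skin, against 0.95, 1.56 and 1.48 in control skin. The groups were far apart, and the difference was -1.84 ± 0.22 (limma, adjusted p = 0.00726), passing with any 1 array left out. Mgll, which cuts the last fatty acid, had levels of 4.69, 4.24 and 4.53 in UVB skin, against 5.22, 5.91 and 6.16 in control skin. Its difference was -1.28 ± 0.27 (0.0314). All 4 Mgll probes had negative differences, from -1.63 to -1.08. Mgll passed only without control mouse 1 (0.0236), and the adjusted p-values without each other array were 0.0717 to 0.111.

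Hilpda, a small droplet protein that inhibits Pnpla2, also fell. Its level was 1.06, 0.92 and 0.88 in UVB skin, against 1.5, 1.64 and 1.71 in control skin. The difference was -0.67 ± 0.12 (limma, adjusted p = 0.0221), and its other probe gave -0.66. It passed only without control mouse 1 (0.0438) among fits lacking 1 array, whose other adjusted p-values were 0.0561 to 0.0945. G0s2, the other inhibitor of Pnpla2 listed here, lay at the edge of detection, and its direction depended on the background treatment. Pde3b, which lowers the cyclic AMP that activates Lipe, was the remaining partner that was lower (-1.19 ± 0.22, adjusted p = 0.023); it did not pass with normexp (-0.31, 0.164) and, with 1 array left out, passed only without UVB mouse 2 (0.0331). It is named because it completes the count.

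Pnpla3, a lipase relative of Pnpla2, was the partner that was higher, by 1.02 ± 0.13 (limma, adjusted p = 0.00919). Its other probe gave 0.35 (0.324) in the fit over probes. Abhd5, the activator of Pnpla2, did not differ by the test (0.20 ± 0.16, 0.441), with its 3 probes on the same side. Adrb3, the adrenergic receptor that starts lipolysis in mouse fat cells, gave 0.39 ± 0.22 (0.283).

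Genes that make triglyceride and build droplets were read from a list of 17, of which 15 were tested. By the test 3 were lower and none was higher, with a median of -0.28. With 1 array left out, 1 to 2 were lower and 0 to 1 higher. Agpat2, which adds the second fatty acid during synthesis, had levels of 2.78, 2.85 and 2.64 in UVB skin, against 4.11, 4.41 and 4.08 in control skin. The groups were far apart on every array, and the difference was -1.44 ± 0.14 (limma, adjusted p = 0.0042), with -1.41 at its other probe. It passed with any 1 array left out. Dgat1, which makes triglyceride from diglyceride, was lower, with a difference of -0.96 ± 0.21 (0.0373) and Cav1, a caveolar protein that also reaches droplets, with -0.68 ± 0.13 (0.0277). With dim probes kept in, both lost the call. With 1 array left out, Dgat1 passed only without control mouse 1 (0.0437) and Cav1 only without UVB mouse 2 (0.0447), with adjusted p-values of up to 0.115 and 0.0995 elsewhere. Dgat2, the other enzyme of that step, did not pass (0.29 ± 0.20, 0.377).

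PPAR receptors sense fatty acids and drive Plin2 among other genes. Their targets outside the droplet were read from a list of 12, all tested. By the test 3 were lower and 1 higher, with a median of -0.30. With 1 array left out, 1 to 3 were lower and 0 higher. Angptl4, a secreted inhibitor of lipoprotein lipase, had levels of 1.17, 0.93 and 1.01 in UVB skin, against 3.42, 3.28 and 2.54 in control skin. All UVB arrays lay well below all control arrays, and the difference was -2.05 ± 0.25, or 4.13-fold lower (limma, adjusted p = 0.00695), with any 1 array left out too. Acadl, an enzyme of fatty acid oxidation, was lower, with a difference of -0.83 ± 0.15 (0.0212), and passed only without UVB mouse 2 or control mouse 1 when 1 array was left out (0.0428 at best, up to 0.0776). The summed level of this list is set by Fabp5, the bright fatty acid binding protein of keratinocytes, which was the gene that was higher (0.56 ± 0.13, 0.0446); it passed in none of the 6 fits with 1 array left out (0.0571 to 0.118), nor under quantile or median scaling.

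**Figure D3:**
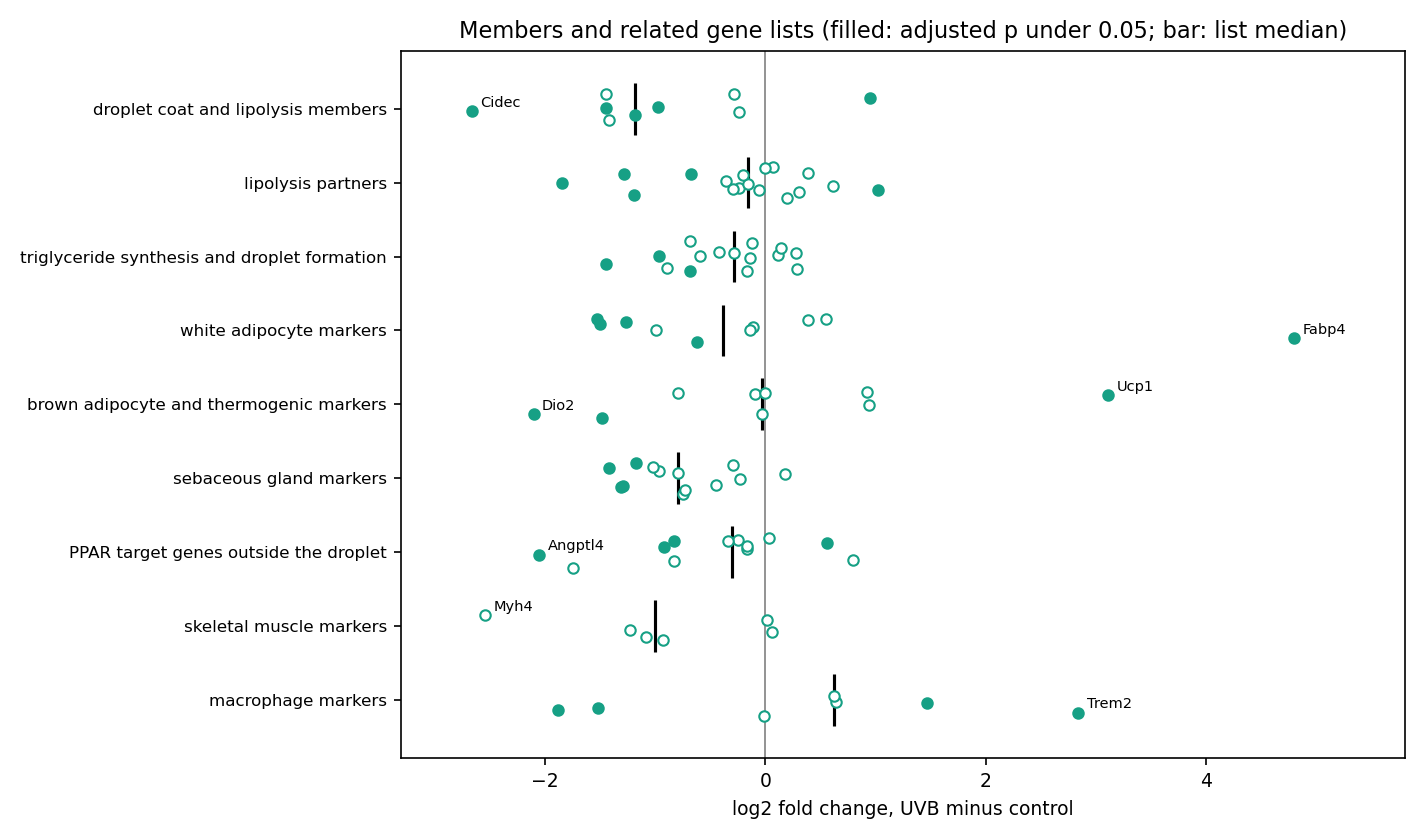
Differences of the members and of the genes of each related list, UVB minus control, on the log2 scale; each point is 1 tested gene, filled points have an adjusted p under 0.05, and black bars are list medians. The members' median of -1.18 lies further below 0 than that of every other list drawn, and points at Ucp1, Trem2, Cidec and G0s2 are fitted values of genes not well above background in 1 group.

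Markers of the cell types that could hold these droplets differed too, and their part in the members' differences was not tested. Summed levels are linear signals relative to the array's 75th percentile, added over a list, and they follow its brightest genes. Of 14 sebaceous gland markers, 13 were tested, 4 were lower and none higher, with a median of -0.79, and Far2 was never well above background. Their sum was 611 to 770 on UVB arrays, against 645 to 737 on control arrays, and was carried by Krt79, a keratin of the gland duct (0.18 ± 0.13, adjusted p = 0.404). Scd1, the desaturase that marks sebocytes, had levels of 4.07, 3.76 and 3.94 in UVB skin, against 4.83, 5.37 and 5.45 in control skin. Its difference was -1.29 ± 0.20 (limma, adjusted p = 0.014, and 0.0625 without control mouse 2). Mgst1, a glutathione transferase of the gland, was lower, with a difference of -1.17 ± 0.17 (0.0127, and 0.0514 without control mouse 2). Mc5r, the melanocortin receptor of sebocytes, gave -0.75 ± 0.30 (0.153). The number of sebaceous markers that were lower ran from 0 to 5 with 1 array left out.

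White fat cell markers did not move one way. Of 12, 10 were tested, 4 were lower and 1 higher, with a median of -0.38. Adipoq, the hormone that defines fat cells, was well above background on no UVB array and on 2 control arrays, at -5.25, -4.48 and -5.92 in UVB skin, against -5.19, -3.78 and -3.40 in control skin. It was not tested, nor was Thrsp. Adipoq and Plin1 were thus dim in both groups, and well above background only on 2 and 1 of the control arrays. Pparg, the receptor that drives fat cell and sebocyte maturation, had levels of 1.08, 0.55 and 0.79 in UVB skin, against 2.25, 2.43 and 2.32 in control skin. The groups were far apart, and the difference was -1.53 ± 0.16 (limma, adjusted p = 0.00513), with any 1 array left out too.

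Fabp4, the fatty acid binding protein of fat cells, macrophages and vessel cells, was higher where Pparg was lower. Its level was 3.09, 2.49 and 4.80 in UVB skin, against -2.56, -0.24 and -1.22 in control skin. The groups did not overlap, and the difference was 4.80 ± 0.77, or 27.9-fold higher (limma, adjusted p = 0.0158, and 0.0549 without UVB mouse 1). Lep, which encodes the fat cell hormone leptin, gave 0.55 ± 0.33 (0.31). The summed white fat level was 27.3 to 45.6 on UVB arrays, against 26.6 to 31.3 on control arrays. The number of these markers that were lower ran from 1 to 4 with 1 array left out.

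Of 9 brown fat and thermogenic markers, all tested, 2 were lower and 1 higher, with a median of -0.03, and their sum was 4.21 to 7.97 on UVB arrays, against 6.98 to 14.1 on control arrays. Dio2, a thyroid hormone activating enzyme, was lower, with a difference of -2.10 ± 0.27 (limma, adjusted p = 0.00807). Ucp1, the uncoupling protein that defines brown fat cells, had levels of -4.43, -4.04 and -3.33 in UVB skin, against -7.05, -7.47 and -6.62 in control skin. It was well above background on all UVB arrays and on no control array, and tested as higher (0.00532). The size depends on how dim signals are treated, with 0.80 under normexp (0.00927) and 0.40 with 1 common floor (0.326), so no bound is given. Ucp1 entered the test only through the UVB arrays, so its call is not set against that of Cidea, also a brown fat gene.

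Markers of muscle and macrophages were read as well, since skin samples can hold both. Of 10 skeletal muscle markers, 6 were tested and none passed, with a median of -1.0. Ckm stood well above background on none of the UVB arrays and on 2 control arrays. Myh4 gave -2.54 ± 0.69 (limma, adjusted p = 0.0616, and 0.0411 without control mouse 3) and Tnnt3 -1.23 ± 0.79 (0.333). Their sum was 2.48 to 3.65 on UVB arrays, against 2.04 to 5.72 on control arrays. Of 10 macrophage markers, 7 were tested, 2 were lower and 2 higher, with a median of 0.62 and a sum of 17.4 to 23.9 on UVB arrays, against 26.4 to 28.2 on control arrays. Adgre1 was lower, with a difference of -1.88 ± 0.11 (0.00178) and Csf1r with -1.52 ± 0.17 (0.00604), and both passed with any 1 array left out, though 1 of the 3 Csf1r probes gave -0.12. Cd68, Cd163 and Fcgr1 were not tested. The 2 that were higher were both dim in control skin, and with 1 array left out 0 to 1 of the macrophage markers were higher. Lyz2 (1.47 ± 0.34, 0.0421) was well above background on 1 control array. It passed only without UVB mouse 3 when 1 array was left out (0.0492), and lost the call under quantile scaling, in the deposited table, with dim probes kept in and with 1 common floor, where it shrank to 0.37 (0.208). Trem2 (0.0274) stood well above background on none of the control arrays. Its difference was 0.93 with normexp and 1.21 with 1 common floor, and it passed in 2 of the 6 fits that leave out 1 array.

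The tissue label was met by bright keratin probes. The collagen probes were less bright, with Col1a1 at a mean of 1.89 in UVB skin and -0.46 in control skin. Of 7 skin markers, all tested, 3 were higher and none lower, with a median of 0.76 and a sum of 3110 to 3700 on UVB arrays, against 2320 to 2730 on control arrays. Col1a1 was higher by 2.35 ± 0.46 (limma, adjusted p = 0.0262) and Lor, a protein of the cornified envelope, by 0.76 ± 0.15 (0.0273). From 0 to 3 of the skin markers were higher with 1 array left out. Each of these 2 calls held in 2 of the 6 fits with 1 array left out, with adjusted p-values of up to 0.0855 for Col1a1 and 0.107 for Lor, and Lor lost the call under quantile and median scaling.

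**Figure D4:**
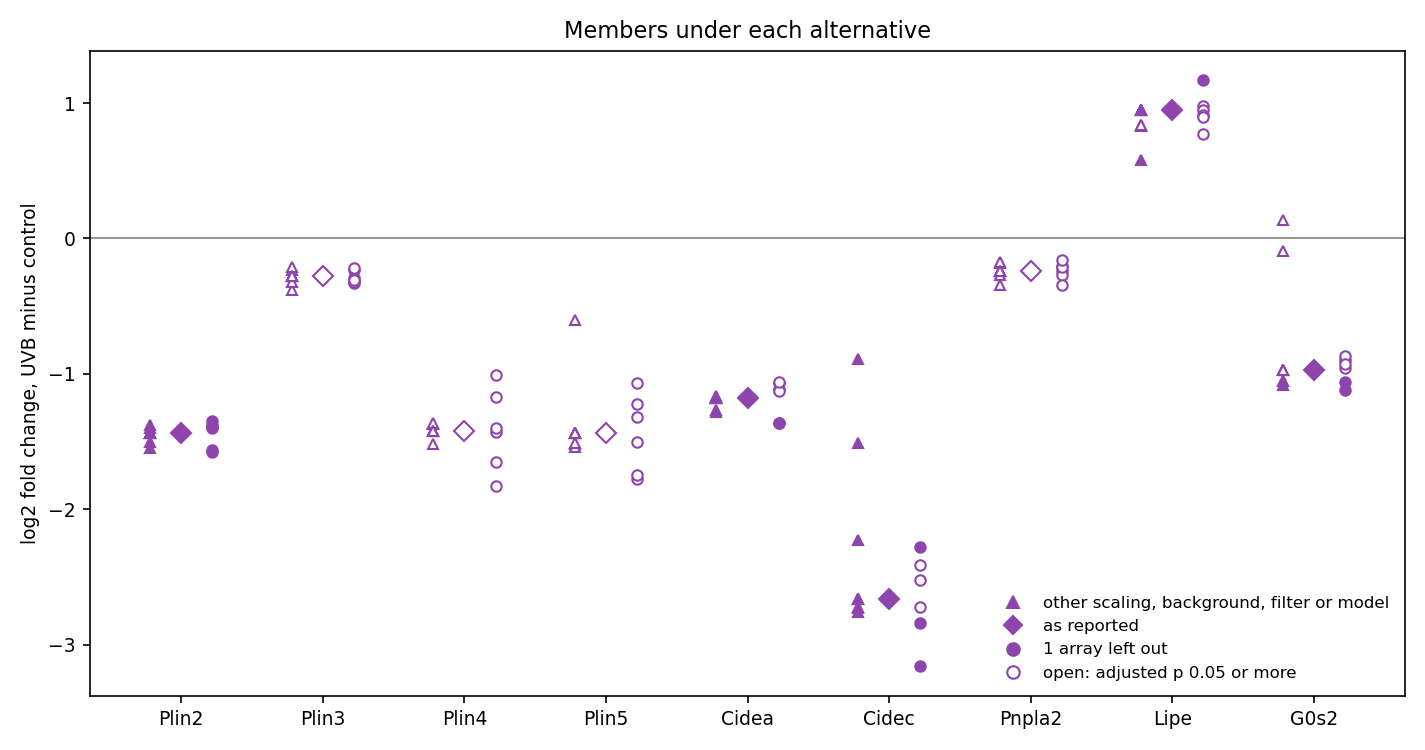
Difference of each tested member, UVB minus control, on the log2 scale: triangles are other scalings, backgrounds, filters or models, the diamond is the value reported, and circles leave out 1 array; open symbols have an adjusted p of 0.05 or more. Plin2 keeps its place under nearly every setting, Lipe and G0s2 lose the call in many, and G0s2 crosses 0 with normexp.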

How the data were processed

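Skin RNA of 6 mice, 3 per group per the labels, was read on 1 array each, so p-values measure the spread between mice. The authors deposited scanner output and a table of log2 values made in a way that the sources used here do not give. Per the file headers, the spot intensity comes from Agilent Feature Extraction 10.7.1.1, with background subtraction and surrogate values for dim spots, and it was not scaled between arrays.

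The deposited intensity was put on a log2 scale after division by the 75th percentile of non-control spots of its array (302 to 352 in signal on UVB arrays, 363 to 519 on control arrays). Flagged outlier spots (135 to 274 per array) were left out and spots of a probe averaged. Probes well above background on at least 3 of 6 arrays were tested (33759 probes), and the one with the highest mean over all 6 arrays stood for its gene (24352 targets). UVB and control were compared in limma 3.58.1 under R 4.3.3. The limma fit was tested on simulated log2 values, and the scaling, the filter and the choice of probe were not.

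Of the probes, 26582 were named by accession and 3094 by symbol through RefSeq's gene table, and 26005 kept the name in the files. Named were all members, 2 genes of smallest adjusted p per list, 14 genes fixed by name and the 3 most like Plin2; Pde3b, Dgat1, Fabp5, Krt79, Lyz2 and Trem2 were added after their values were seen. Members and lists were chosen with earlier results of these data known. Fit, filter, scaling and background were varied, each array was left out in turn, and a common floor on dim signals was added after seeing the data. Elovl3 and Adrb3 each stand in 2 lists. Slide and scan time were the same for all 6.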

Additional observations from a re-analysis of the deposited data

How the results depend on the processing

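Of 142 refits of single members, 113 kept direction and side of the threshold, 26 lost the call, 2 gained it (Plin4 with normexp, Plin5 with a trended, robust variance) and 1 turned direction: G0s2 with normexp (0.14). The refits that kept their side include those of Plin3, Plin4, Plin5 and Pnpla2, which were not called as reported and mostly stayed uncalled. All lost calls were those of Plin2, Cidea, Cidec, Lipe and G0s2. With 1 array left out, Plin2 passed in 6 of 6 fits, Cidec in 3, Cidea and G0s2 in 2 each and Lipe in 1. Under the other settings, Cidec passed in 9 of 9 and Plin2 and Cidea in 9 of 10. G0s2 passed in 5 of 9 of these and Lipe in 5 of 10. The other Cidec probe turned to 0.20 with normexp, and ranged from -0.80 to 0.18 with 1 array left out. The count of members higher, 1 as reported, was 0 under quantile scaling, median scaling, the deposited table and no filter, and 0 to 1 with 1 array left out. The count lower, 4 as reported, was 2 when probes had to be well above background on all 6 arrays, which left 7 members, and 1 to 3 with 1 array left out. Of member probes, 5 as reported, 3 of 7 passed that filter and the test, and 1 to 3 passed with 1 array left out. Of all targets 3058 were called, against 5037 with normexp and 859 to 1907 with 1 array left out. The cause of these moves was not tested, beyond the smaller number of arrays or probes. The median of all targets was -0.04, and -0.14 under median scaling, 0.08 with normexp and 0.10 without a filter. Same-numbered mice did not deviate together (correlations -0.26 to -0.08), so the numbers were not taken as pairs. With the number as a replicate block, members higher were 0, members lower 1 (Cidec), member probes called 1 and targets called 773. Signal near background limits Plin1, Cidec, G0s2 and Lipe. Plin5 was dim too, and its difference was -1.44 as reported and -0.60 with normexp.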
